A study of Mus musculus with 48 samples.

Results

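Strong and weak antigen were compared in the DO11.10 T hybridoma without engagement of the inhibitory receptor PD-1. The comparison used 9 of the 48 libraries of the study, which also holds primary CD4+ T cells and libraries with PD-1 engagement, and the 9 were taken by dose and engagement labels from 26 hybridoma libraries. The 5 strong-antigen libraries came from cells given pOVA, an ovalbumin peptide, at 1000 nM (2 libraries) or 10000 nM (3 libraries). The 4 weak-antigen libraries came from cells given 1 nM (2 libraries) or 10 nM (2 libraries). All 9 share 1 cell line of the mixed strain background BALB/c x AKR/J. Both unengaged libraries at dose 0 were left out because 1 of them carries B cell RNA, a choice made from measured values. How the peptide was presented, how long it was applied, how PD-1 was engaged in the other libraries and whether replicates were separate cultures are not stated in the labels. The p-values therefore measure the spread between these libraries, which may be technical.

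Each library was made by CAGE, cap analysis of gene expression, which counts the 5′ ends of capped RNA and so gives both the amount of an RNA and the position at which its transcription starts. Values are RPM, the tags of a start site cluster scaled to library size, and were summed per gene. Library totals recovered from the RPM steps were 7.79 to 13.38 M tags (megatags) in the strong-antigen libraries and 13.42 to 17.9 M tags in the weak-antigen libraries. Every strong-antigen library was thus smaller than every weak-antigen library. In bulk RNA, fewer cells with an RNA and less RNA per cell cannot be told apart. Values per library are listed with the 1000 nM libraries before the 10000 nM libraries, and with the 1 nM libraries before the 10 nM libraries.

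The T cell receptor (TCR) signals through several branches once it binds peptide on a presenting cell. Calcium and the phosphatase calcineurin activate NFAT factors, the Ras and MAP kinase branch drives EGR and AP-1 factors, and another branch activates NF-kB. DO11.10 cells divide in culture without antigen, and antigen makes them secrete cytokines such as IL-2, which has long made this hybridoma a reporter line for antigen recognition. The dose range used here asks which start sites separate a strong TCR signal from a weak one.

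Markers of T cells were present in every library. Of 13 T cell markers, 11 had values, and their summed level was 1192 to 1479 RPM in the strong-antigen libraries and 1445 to 1583 RPM in the weak-antigen libraries. The 20 measured markers of B cells and antigen presentation summed to 125 to 290 RPM in the strong-antigen libraries and 165 to 214 RPM in the weak-antigen libraries, against 139 and 1365 RPM in the unengaged dose 0 libraries left out. Neither of the B cell markers Cd79a and Ms4a1 was at 0 in any of the 9 libraries. Of 12 myeloid and 7 cytotoxic markers 1 each had values (Cst3 and Gzma), and neither passed the test below, although Gzma was called higher with TMM factors (log2 difference 0.44, adjusted p = 0.0252), with edgeR (adjusted p = 0.0287), with DESeq2 (adjusted p = 0.0351) and without the first 10 nM library (adjusted p = 0.0414). A fit with the mean level of 5 B cell markers as a covariate called 1058 genes higher and 1601 lower.

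Of 9990 genes tested, 1172 were higher (11.7% of those tested) and 1841 were lower (18.4%) under strong antigen, at an adjusted p under 0.05 with limma. The median log2 difference over all tested genes was -0.0708. The higher genes moved further: 251 were at least 2-fold higher (2.51%) and 149 at least 2-fold lower (1.49%) on the log2(RPM + 1) scale. That scale understates the change of low genes, and every rise or fall given below as a number without a unit is a log2 difference on it. The strong-antigen and weak-antigen libraries did not overlap, with strong antigen higher, for 1110 tested genes (11.1%) and, with strong antigen lower, for 1709 (17.1%), whether or not these genes were called. No cluster in the deposited table has a highest value below 3 RPM, so a low gene is listed only through the libraries in which it is high. The counts here and in the gene lists below carry that limit. The split between directions depended on the scaling: with TMM factors 1718 genes were higher and 1682 lower. The first principal component held 57.9% of the variance among the 9 libraries. Without the first 1 nM library the fit called 1020 genes lower, and without the first 10 nM library 1074.

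**Figure D1:**
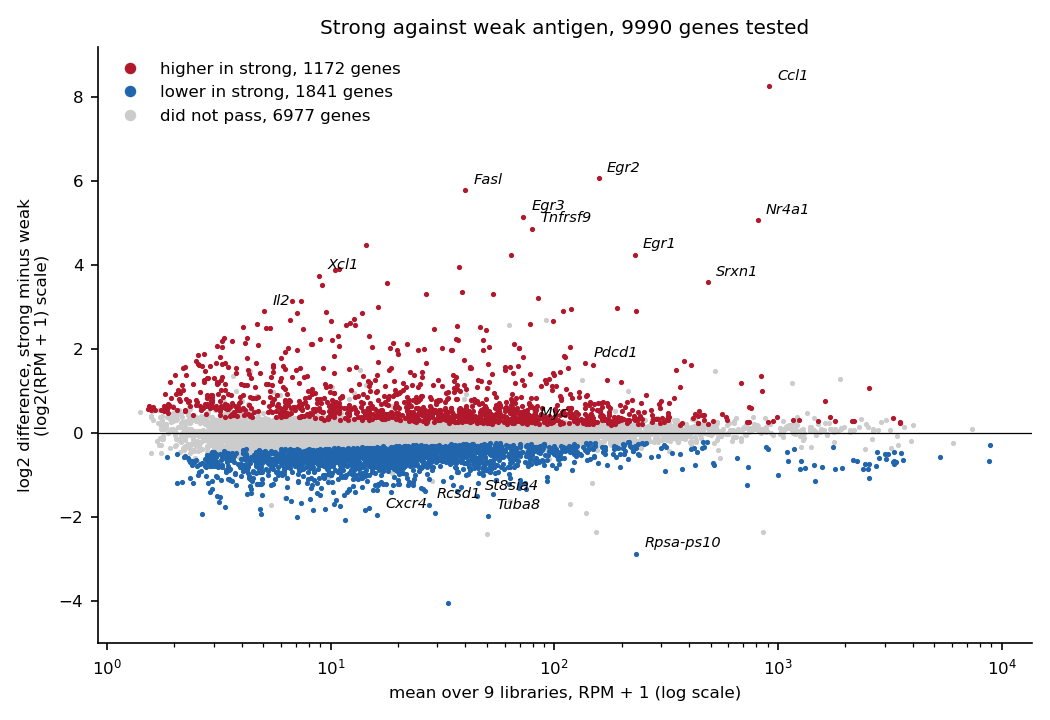
Log2 difference between strong and weak antigen (y axis, log2(RPM + 1) scale, strong minus weak) against the mean level over the 9 libraries (x axis, RPM + 1, log scale), with 1 point per gene tested. The 1172 higher genes reach a difference of 8.26 (Ccl1), whereas most of the 1841 lower genes lie between 0 and -2.

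The largest rise belonged to Ccl1, a chemokine that recruits cells bearing the receptor CCR8. Its level was 1291, 1105, 1950.1, 2144 and 1673 RPM in the strong-antigen libraries, against 1.49, 0.79, 9.74 and 11.3 RPM in the weak-antigen libraries. The groups were far apart, and within the weak arm both 10 nM libraries were above both 1 nM libraries. The log2 difference was 8.26 (SE 0.12, adjusted p = 1.99e-11 with limma), from a start site at chr11:81993313-81993316, minus strand (mm9, as deposited). Fasl, the ligand of the death receptor FAS, had 68.6, 64.7, 83.9, 62.1 and 68.96 RPM under strong antigen, against 0, 0, 0.32 and 0.89 RPM under weak antigen. It was listed at 0 in both 1 nM libraries, and its log2 difference was 5.80 (SE 0.14). The costimulatory receptor gene Tnfrsf9, which encodes 4-1BB, reached 129, 114, 155, 160.1 and 132 RPM under strong antigen, against 2.01, 1.71, 5.76 and 7.21 RPM under weak antigen. The arms did not overlap, and the log2 difference was 4.87 (SE 0.10).

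The 250 bases before the RefSeq start (GRCm38.p6) of 4 genes are printed because these genes stand at either end of the response and have a single start in the RefSeq promoter table. Capitals mark matches to the motifs searched, on either strand. Those were AP-1 (TGANTCA), the cyclic AMP element CRE (TGACGTCA), the NFAT core (GGAAAA), an EGR motif (GCGTGGGCG), the TATA box (TATAAA), and, by name, the CArG box of serum response factor and the kappaB site.
Ccl1 (chr11:82179813-82180062, minus strand): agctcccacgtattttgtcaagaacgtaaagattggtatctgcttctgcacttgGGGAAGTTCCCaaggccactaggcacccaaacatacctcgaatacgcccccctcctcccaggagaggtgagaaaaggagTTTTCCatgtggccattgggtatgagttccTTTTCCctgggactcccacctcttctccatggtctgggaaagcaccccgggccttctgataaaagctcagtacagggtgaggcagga
Fasl (chr1:161788496-161788745, minus strand): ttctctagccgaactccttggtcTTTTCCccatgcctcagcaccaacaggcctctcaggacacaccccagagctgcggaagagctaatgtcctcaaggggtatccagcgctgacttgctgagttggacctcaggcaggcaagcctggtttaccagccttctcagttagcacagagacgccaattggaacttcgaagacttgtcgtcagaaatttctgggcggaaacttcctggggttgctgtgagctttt
Nr4a1 (chr15:101266596-101266845, plus strand): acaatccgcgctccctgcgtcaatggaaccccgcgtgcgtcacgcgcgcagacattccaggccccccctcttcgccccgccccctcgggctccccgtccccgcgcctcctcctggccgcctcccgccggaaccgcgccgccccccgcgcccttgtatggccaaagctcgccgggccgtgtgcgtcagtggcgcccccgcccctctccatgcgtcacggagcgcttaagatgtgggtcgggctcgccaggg
Tuba8 (chr6:121210484-121210733, plus strand): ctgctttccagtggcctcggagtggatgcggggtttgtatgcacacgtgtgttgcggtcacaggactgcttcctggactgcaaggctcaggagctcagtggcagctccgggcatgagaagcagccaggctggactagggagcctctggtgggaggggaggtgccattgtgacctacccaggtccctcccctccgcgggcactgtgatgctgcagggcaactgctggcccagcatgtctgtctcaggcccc

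In the Ccl1 window a kappaB match begins at position -196, counted back from the start, and reads as a match on both strands with an overlap. NFAT core matches begin at -117 and -87. The Fasl window holds 1 NFAT core match at -227, and the Nr4a1 and Tuba8 windows hold none of the motifs. A single RefSeq promoter was found for 5402 of the 9990 tested genes, for 125 of the 251 genes at least 2-fold higher and for 64 of the 149 at least 2-fold lower. The AP-1 letters were in 11.2% of the promoters of the higher genes (14 of 125), in 3.13% of those of the lower genes (2 of 64) and in 3.54% of all 5402. The kappaB site was in 14.4%, 7.81% and 8.74% of these sets, and the EGR motif in 3.20%, 0% and 1.06%. The NFAT core was about as frequent in each set, in 16.8%, 20.3% and 18.1%. Of all 32536 promoters in the table, 6.73% held the AP-1 letters, 7.28% the kappaB site, 0.541% the EGR motif and 20.4% the NFAT core. CRE letters were in 1.60% of the promoters of genes at least 2-fold higher, in 0% of those at least 2-fold lower and in 3.35% of the 5402, and in 7.30% of 507 promoters of genes called higher by less than 2-fold. A match is a description of the sequence and shows no binding.

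The transcription factors of the early TCR response moved mostly together. Of 21 list members tested, 18 rose and 1 fell, with a median log2 difference of 2.12, and 17 were at least 2-fold higher. Egr2 and Egr3, zinc finger factors that restrain T cell activation, differed by 6.08 and 5.16 on the log2 scale. Egr2 (chr10:67000614-67000617, plus strand) had 274, 274, 261, 325 and 254 RPM under strong antigen, against 0.44, 0.2, 11.2 and 12.2 RPM under weak antigen, so that the 10 nM libraries already stood above the 1 nM libraries. Egr1, an immediate early factor of the MAP kinase branch, had 449.8, 303, 396, 434 and 340.1 RPM under strong antigen, against 6.26, 5.38, 57.1 and 56.3 RPM under weak antigen. Its log2 difference was 4.26 (SE 0.12). Nab2, a corepressor that binds EGR factors, averaged 108 ± 4.21 RPM under strong antigen and 7.07 ± 6.54 RPM under weak antigen (SD, n = 5 and n = 4). Its log2 difference was 4.24.

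The orphan nuclear receptors Nr4a1 and Nr4a3, immediate early genes of TCR signalling, rose with the EGR genes. Nr4a1 (chr15:101097276-101097283, plus strand) had 1499, 1229.8, 1470.2, 1550.3 and 1341 RPM under strong antigen, against 25.1, 15.7, 82.6 and 80.5 RPM under weak antigen. The groups were far apart, with the 10 nM libraries above the 1 nM libraries within the weak arm, and the log2 difference was 5.08 (SE 0.13, adjusted p = 7.63e-10 with limma). Nr4a3 averaged 63.4 ± 13.8 RPM under strong antigen and 2.98 ± 0.953 RPM under weak antigen, a log2 difference of 3.96. The member that fell was Klf6, a zinc finger factor named here after its values were seen, with a log2 difference of -0.69. Without the first 1 nM library, without the first 10 nM library, or with the 1, 10 or 10000 nM libraries left out, 0 members were called lower. Myc, the driver of cell growth, had 90.7, 79.5, 89.6, 72.3 and 85.7 RPM under strong antigen, against 77.8, 61.4, 69.3 and 76.4 RPM under weak antigen. These ranges overlapped and Myc did not pass (log2 difference 0.23, SE 0.10, adjusted p = 0.11 with limma), although it was called with TMM scaling (adjusted p = 0.0333), edgeR (adjusted p = 0.0356) and DESeq2 (adjusted p = 0.0214).

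**Figure D2:**
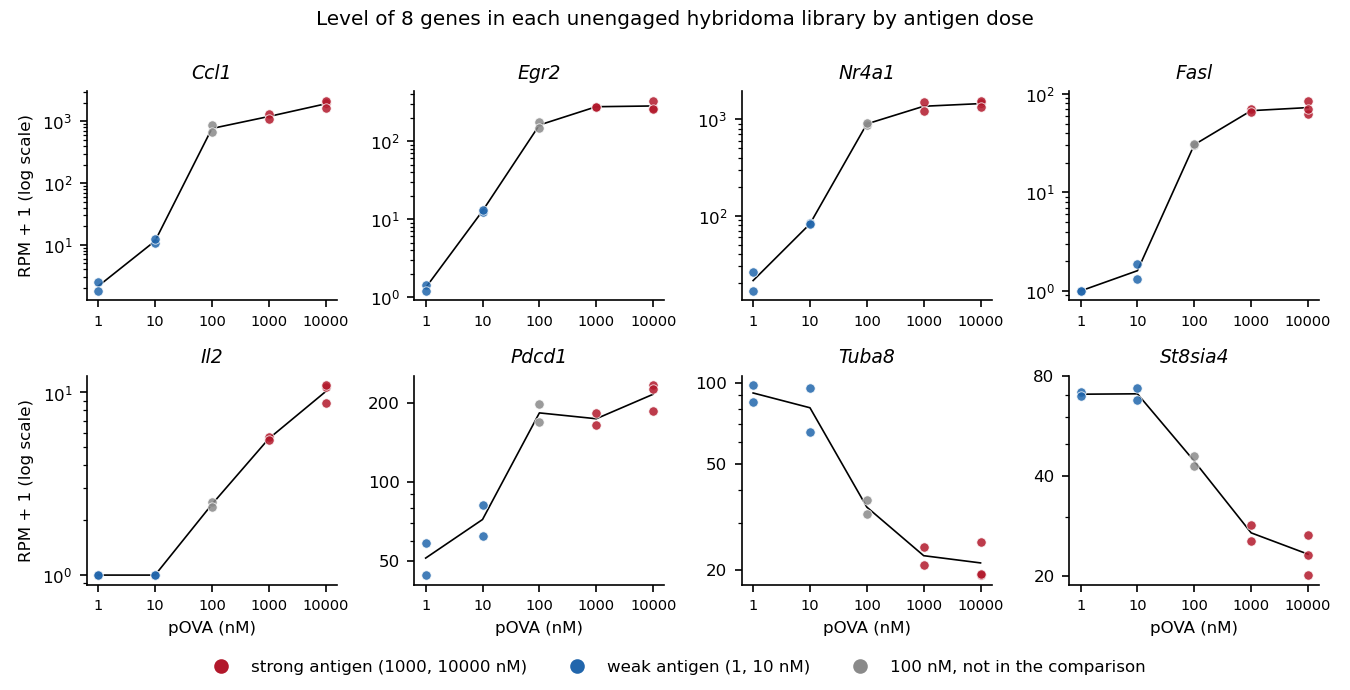
Level of 8 genes (y axis, RPM + 1, log scale) in each hybridoma library without engagement, by pOVA dose (x axis, nM), with a line through the dose means. Red points are strong antigen, blue points weak antigen and grey points the 100 nM libraries outside the comparison, and in all 8 panels the red and blue points do not overlap.

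Of 24 cytokine genes listed, 14 had values, and of these 11 rose and 1 fell, with a median log2 difference of 1.45. Low members are in the deposited table only through libraries in which they are high, so this share carries that limit. With a filter of at least 5 RPM in 2 libraries, 8 of 11 rose and 1 fell, with a median of 0.78. Il2, the T cell growth factor (chr3:37024876-37024878, minus strand), had 4.69, 4.48, 9.65, 9.98 and 7.71 RPM in the strong-antigen libraries and was listed at 0 in all 4 weak-antigen libraries. Against a floor of 3 tags over the weak-antigen libraries together, 0.0481 RPM, it was at least 152-fold higher. Tnf, an inflammatory cytokine, was present at both strengths, with 171, 200.5, 178, 170.4 and 243 RPM under strong antigen, against 18.5, 20.5, 25.6 and 31.6 RPM under weak antigen. Its log2 difference was 2.96 (SE 0.12). Tnfsf11, the ligand RANKL, rose by 2.50 and Lta, lymphotoxin alpha, by 2.10. Il3, a growth factor for blood cell precursors, had 1.74, 2.09, 4.29, 3.50 and 3.85 RPM under strong antigen, against 0.07, 0, 0 and 0 RPM under weak antigen. The cytokine that fell was Il16, also named after its values were seen, at a log2 difference of -1.78.

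Among chemokines and their receptors 6 of 9 rose and 1 fell, with a median of 0.50. Xcl1, lymphotactin, a chemokine for cross-presenting dendritic cells, had 11.02, 9.94, 18.1, 15.3 and 16.3 RPM under strong antigen, against 0.07, 0.07, 0 and 0.06 RPM under weak antigen. The groups did not overlap, and 1 weak-antigen library had no tag at all (log2 difference 3.76, SE 0.12). Cxcl10, a ligand of the receptor CXCR3, rose by 2.21. Cxcr4, the receptor of the homing chemokine CXCL12, fell to 5.12, 7.70, 5.77, 6.21 and 5.39 RPM under strong antigen, against 27.5, 20.6, 36.1 and 21.9 RPM under weak antigen. Its log2 difference was -1.93 (SE 0.17). Ccl5 did not pass (log2 difference 0.50, adjusted p = 0.138 with limma), but was called with DESeq2 (adjusted p = 0.0392) and without the second 10000 nM library (adjusted p = 0.0378).

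Surface receptors changed in both directions, mostly upwards. Of 18 activation and costimulation receptors, 13 rose and 2 fell, with a median log2 difference of 1.10, and 1 fell without the first 1 nM, the first 10 nM or either 1000 nM library. Cd69, an early marker that holds activated T cells in tissue, had 65.95, 63.8, 58.5, 51.03 and 50.2 RPM under strong antigen, against 15.1, 13.2, 24.3 and 25.4 RPM under weak antigen. The gap between the groups was clear although the gene was well above 0 at 1 nM (log2 difference 1.59, SE 0.089). Cd24a rose by 2.56, the costimulatory receptor Cd27 by 2.51, Cd83 by 2.60, Cd40lg, which activates B cells through CD40, by 2.00, and the IL-2 receptor beta chain Il2rb by 1.98.

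Inhibitory receptors and their ligands rose in 7 of 9 cases and fell in 1, with a median log2 difference of 1.67. Cd274, which encodes the PD-1 ligand PD-L1, had 85.7, 105, 91.1, 44.4 and 111 RPM under strong antigen, against 6.63, 6.30, 6.83 and 11.6 RPM under weak antigen. The lowest of the strong-antigen values, from a 10000 nM library, was still above all weak-antigen values (log2 difference 3.33, SE 0.24). Pdcd1, which encodes PD-1 itself, had 182, 163, 232, 225 and 185 RPM under strong antigen, against 57.6, 43.4, 80.8 and 61.4 RPM under weak antigen. The groups did not overlap (log2 difference 1.67, SE 0.12, adjusted p = 3.64e-06 with limma). Tigit rose by 2.05, Cd160 by 2.06 and 4632428N05Rik, the gene of the inhibitory ligand VISTA, by 1.69. Cd200r1, the receptor of the inhibitory ligand CD200, moved the other way, with 3.64, 2.91, 3.22, 2.10 and 2.31 RPM under strong antigen, against 10.9, 10.4, 15.6 and 15.2 RPM under weak antigen (log2 difference -1.83, SE 0.13).

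The TCR complex and its proximal signalling proteins did not move as a block. Of 20 members, 6 rose and 8 fell, with a median of -0.19. The CD3 chain genes Cd3e, Cd3d and Cd3g differed by -0.19, -0.06 and -0.18 and did not pass. Zap70, the kinase recruited to the phosphorylated receptor, rose to 142, 108, 141, 124 and 113 RPM under strong antigen, against 60.8, 56.3, 63.97 and 62.1 RPM under weak antigen. The groups were separate (log2 difference 1.02, SE 0.10). The adaptor genes Sh2d2a and Lcp2 rose by 0.94 and 0.85, and the kinase gene Fyn by 0.88. Rasgrp1, the exchange factor that activates Ras below the TCR, fell to 54.3, 51.95, 43.2, 35.5 and 38.3 RPM under strong antigen, against 107, 99.6, 95.5 and 97.2 RPM under weak antigen (log2 difference -1.12, SE 0.083). Themis, a TCR signalling adaptor of thymocytes, differed by -0.93, and Lck, the first kinase of the cascade, by -0.55.

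Regulators that dampen signals rose in 14 of 26 cases and fell in 6 (3 without the 1 nM libraries), with a median of 0.55. Dusp2 and Dusp4, which encode phosphatases of MAP kinases, rose by 3.33 and 2.54. Socs1, an inhibitor of cytokine receptor signalling, had 153, 112, 178, 127 and 128 RPM under strong antigen, against 10.7, 13.5, 15.2 and 16.00 RPM under weak antigen. Its groups did not overlap and its log2 difference was 3.22 (SE 0.14). Spry1, an inhibitor of the Ras branch, and Rgs16, which shortens G protein signals, were near 0 under weak antigen. Spry1 averaged 7.46 ± 1.72 RPM under strong antigen and 0.443 ± 0.0727 RPM under weak antigen, and Rgs16 averaged 5.51 ± 2.22 RPM under strong antigen and 0.03 ± 0.0346 RPM under weak antigen. Ptpn22, a phosphatase that acts on proximal TCR kinases, rose by 2.06.

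The NF-kB pathway rose in 12 of 17 cases and fell in 2, with a median of 0.56, and 1 fell without the first 1 nM, either 10 nM, the second 1000 nM, or the first or the third 10000 nM library. Among its inhibitors, Nfkbiz and Nfkbid, atypical nuclear members of the IkB family, rose by 2.63 and 2.45, Nfkbia by 1.44, and Tnfaip3, which encodes the deubiquitinase A20, by 2.12. Rel, the subunit c-Rel, had 52.6, 43.9, 63.1, 58.9 and 63.2 RPM under strong antigen, against 10.8, 10.4, 10.9 and 11.5 RPM under weak antigen. The weak-antigen values lay close together, below the strong-antigen values (log2 difference 2.22, SE 0.091).

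Genes of NFAT and calcium signalling split, with 4 of 15 higher and 6 lower (median -0.15). Nfatc1, the NFAT factor that amplifies its own transcription, rose to 26.4, 18.99, 33.3, 28.9 and 27.6 RPM under strong antigen, against 4.47, 4.72, 6.52 and 6.71 RPM under weak antigen. Nfatc2, the member present in resting T cells, fell to 4.86, 4.86, 7.01, 3.59 and 4.88 RPM under strong antigen, against 13.7, 11.02, 10.4 and 10.9 RPM under weak antigen. The pair of factors thus moved in opposite directions, at log2 differences of 2.04 and -1.07. The same held for the calcium channel subunits, with Orai1 at 1.98 (SE 0.14) and Orai2 at -0.78 (SE 0.15). Atp2b1, a pump that removes calcium from the cell, rose by 1.61.

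Effector and lineage transcription factors rose in 10 of 22 cases and fell in 6, with a median of 0.14; 3 fell without the first 1 nM library, and likewise 3 without either 10 nM library or without the second 1000 nM library. Irf4, whose level follows TCR strength in many T cell systems, had 21.9, 16.00, 24.1, 23.5 and 22.1 RPM under strong antigen, against 1.71, 2.16, 1.83 and 2.29 RPM under weak antigen. The groups did not overlap, and the log2 difference was 2.87 (SE 0.13). Bcl6, the repressor that directs follicular helper T cells, rose by 2.02, Irf8 by 1.57, Nfil3 by 1.52 and Id3, an inhibitor of E proteins, by 1.32. Fli1, an ETS family factor, fell to 22.1, 19.5, 20.4, 21.8 and 17.98 RPM under strong antigen, against 61.4, 49.6, 61.8 and 45.8 RPM under weak antigen (log2 difference -1.37, SE 0.12).

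**Figure D3:**
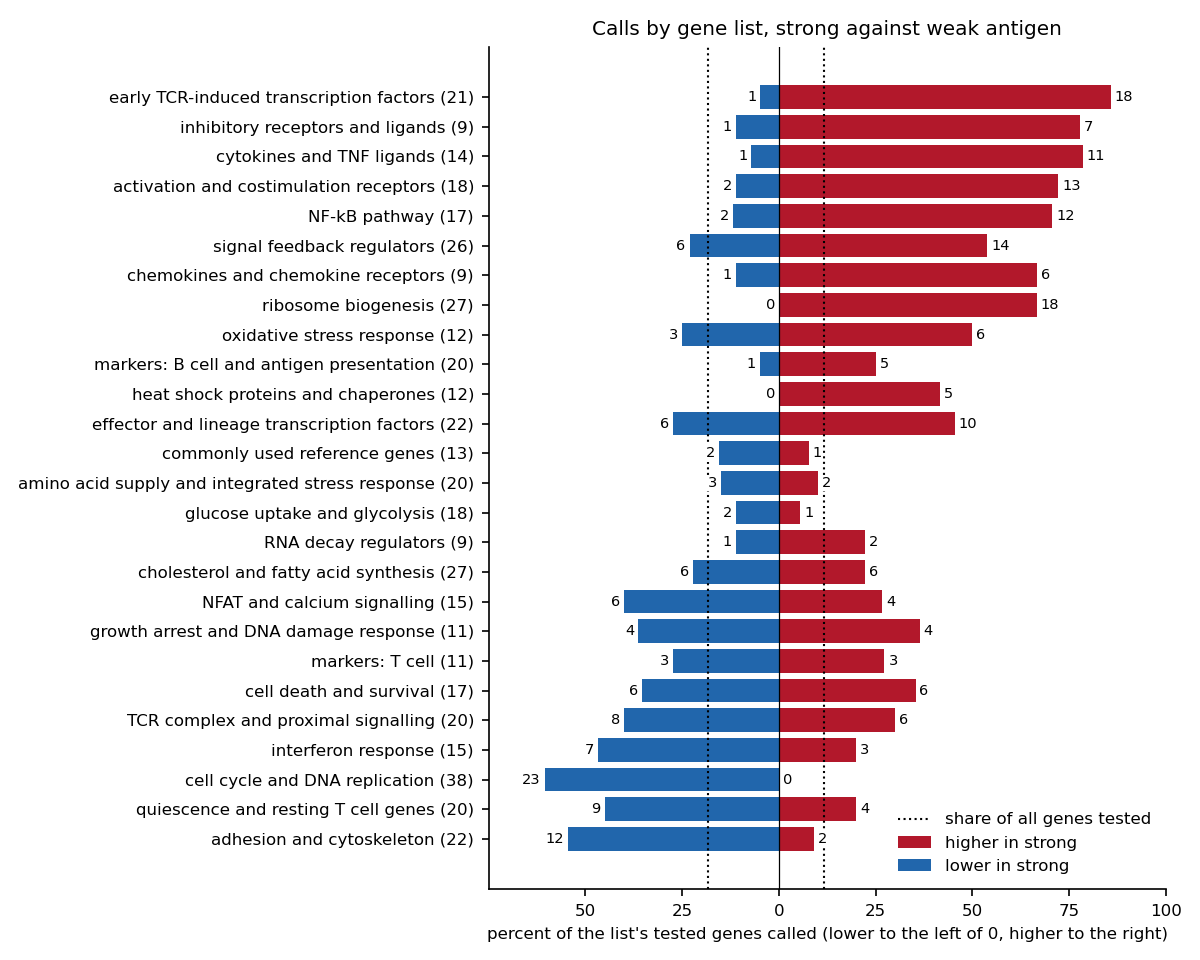
Percent of the tested genes of each list called higher (red, to the right) or lower (blue, to the left) under strong antigen, with the number called at the bar end, the number tested in brackets, and lists sorted by their median log2 difference. Dotted lines mark the share of all tested genes, 11.7% higher and 18.4% lower; the early transcription factors lie at the top with 18 of 21 higher, and the cell cycle genes near the bottom with 23 of 38 lower.

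Genes of quiescence and of the resting state were lower in 9 of 20 cases and higher in 4, with a median of -0.37. Those that fell included Tsc22d3, the glucocorticoid-induced leucine zipper (log2 difference -1.56), the PI3 kinase inhibitor Pik3ip1 (-1.49), the stress-induced mTOR inhibitors Sesn1 (-1.23) and Ddit4 (-1.20), and Txnip (-1.22), which limits glucose uptake. Slfn2, which maintains quiescence in mouse T cells, did the opposite. It had 16.1, 20.2, 18.1, 19.9 and 23.4 RPM under strong antigen, against 1.86, 2.75, 1.58 and 2.18 RPM under weak antigen (log2 difference 2.72, SE 0.14).

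Cell cycle and DNA replication genes fell in 23 of 38 cases and rose in none, with a median of -0.35; the changes were below 2-fold for 22 of the 23. Without the first 1 nM library 15 fell, with the 1 nM or the 10 nM libraries left out 13 and 15, and without the 10000 nM libraries 13. Mki67, the proliferation marker Ki-67, had 64.1, 58.9, 109, 129 and 93.6 RPM under strong antigen, against 165, 154, 181 and 116 RPM under weak antigen. The groups overlapped at the library level, and within the strong arm the 1000 nM libraries were lowest (log2 difference -0.88, SE 0.13). Ccnd3, cyclin D3, fell with no overlap, at 74.6, 53.2, 67.2, 70.2 and 46.5 RPM under strong antigen, against 143, 127, 124 and 117 RPM under weak antigen (log2 difference -1.03). The replication regulator E2f8 differed by -0.68 and the thymidine kinase Tk1 by -0.66. Cdkn1a, which encodes the cell cycle inhibitor p21, rose to 99.9, 77.2, 118, 88.6 and 99.5 RPM under strong antigen, against 39.3, 35.5, 39.5 and 41.3 RPM under weak antigen (log2 difference 1.26, SE 0.11). Of its list of 11 growth arrest and DNA damage genes 4 rose and 4 fell, with Plk3, a stress kinase, at 2.60, Gadd45b at 2.14, Gadd45a at -0.82 and Ccng2 at -1.21; 2 genes fell without the first 1 nM library, and 2 without the second 10 nM library.

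Ribosome biogenesis genes rose in 18 of 27 cases and fell in none, by small amounts (median 0.36, none at 2-fold). Ddx21, a nucleolar helicase, had 277, 290.4, 325, 252 and 332 RPM under strong antigen, against 188, 172, 156 and 187 RPM under weak antigen. The groups were separate although the log2 difference was only 0.73 (SE 0.10). Gnl3, nucleostemin, rose by 0.65 and the rRNA processing factor Rrp9 by 0.61. With the 10 nM libraries as the sole weak group 7 of these genes were called higher, and with the 1000 nM libraries as the sole strong group 8.

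Genes of glucose, amino acid and lipid metabolism were called in both directions. Over all tested genes 11.7% were higher and 18.4% lower, and in the main fit the glucose and amino acid lists exceeded neither share. Of 18 genes of glucose uptake and glycolysis 1 rose and 2 fell (median -0.0437), and the hexokinase Hk1 was the largest, at -0.87. In that list 0 rose without the second 10 nM library, 2 rose without the first 1000 nM library, and 1 fell without the first 1 nM, the first 10 nM or the second 1000 nM library. Of 20 genes of amino acid supply and the integrated stress response 2 rose and 3 fell (median -0.0355), or 4 and 1 with TMM factors, and Trib3 and the cystine transporter Slc7a11 were the furthest out, at -0.77 and 0.55. There 1 rose when any single library was left out, and 1 fell without the first 1 nM, either 10 nM or the second 1000 nM library. Cholesterol and fatty acid synthesis split evenly, 6 of 27 higher and 6 lower (3 lower without the 10 nM libraries; median -0.0963). Cyp51, an enzyme of cholesterol synthesis, rose by 0.80 (SE 0.08), while the desaturase gene Scd2 fell (-0.89, SE 0.16). Of 13 commonly used reference genes 1 rose and 2 fell (median 0.0305), or none and 4 with quantile normalization; 0 fell without the first 1 nM or either 10 nM library, 1 fell without the second 1 nM library, and 2 rose and 1 fell without the second 1000 nM library.

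Genes of the oxidative stress response rose in 6 of 12 cases and fell in 3, with a median of 0.23, and 3 rose when the 1 nM or the 10000 nM libraries were left out. Srxn1, which repairs overoxidised peroxiredoxins, stood apart from the rest of its list, with 643, 549.9, 1023, 1009 and 895 RPM under strong antigen, against 52.6, 51.6, 79.97 and 67.3 RPM under weak antigen. The 1000 nM libraries were below the 10000 nM libraries and both were far above the weak arm (log2 difference 3.60, SE 0.086). Hmox1, heme oxygenase 1, rose by 1.08 and Gclc, a subunit of the glutathione synthesis enzyme, by 0.84, but Nqo1 fell (log2 difference -0.61). Heat shock genes rose in 5 of 12 cases and fell in none (3 rose without the second 1 nM library, and 2 without the 1 nM or without the 10000 nM libraries), with Hspa1b at 1.41 and Dnajb1 at 0.67.

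Changes in both directions were also seen in cell death and interferon genes. Of 17 death and survival genes 6 rose and 6 fell. Bcl2a1d, an antiapoptotic BCL2 relative, averaged 3.99 ± 0.709 RPM under strong antigen and 0.075 ± 0.0881 RPM under weak antigen, and the death receptor Fas rose by 1.11, while the initiator caspase Casp9 fell (log2 difference -1.06). Bcl2a1d belongs to a family of near-identical gene copies, so its value is uncertain. Of 15 interferon response genes 3 rose and 7 fell (median -0.33), or 4 fell when the first 1 nM, the first 10 nM or the second 1000 nM library was left out. Isg15 and Oasl1 rose by 1.47 and 1.54, and Ifit2 and Ddx58, which encodes the RNA sensor RIG-I, fell (-1.18 and -0.96). Of 9 RNA decay regulators 2 rose and 1 fell (0 without the first 1 nM or the first 10 nM library, or without the 10 nM libraries, and 2 without the first 1000 nM library), and those that rose were both of the ZFP36 family that destabilises AU-rich mRNAs. Zfp36l1 had 178, 121, 236, 191 and 160.0 RPM under strong antigen, against 21.2, 18.3, 26.4 and 20.8 RPM under weak antigen, without overlap (log2 difference 2.91, SE 0.15). Zfp36 rose by 1.98 (SE 0.25).

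Adhesion and cytoskeleton genes fell in 12 of 22 cases (7 without the 10 nM libraries) and rose in 2, with a median of -0.40. Tuba8, an alpha tubulin, had the largest fall among genes of at least median level chosen by the naming rule. Its level was 23.5, 19.9, 18.2, 24.4 and 18.4 RPM under strong antigen, against 97.1, 84.2, 94.96 and 64.5 RPM under weak antigen, with no overlap (log2 difference -1.96, SE 0.14, adjusted p = 3.14e-06 with limma), and it lies at chr6:121160734-121160816, plus strand. Rcsd1, an actin capping regulator, had 20.1, 11.4, 12.4, 10.5 and 9.25 RPM under strong antigen, against 47.6, 41.3, 41.2 and 44.01 RPM under weak antigen. Here the first 1000 nM library was the highest of the strong arm, still below every weak-antigen library (log2 difference -1.69). Icam1, a ligand of the integrin LFA-1, rose by 1.66 and the tubulin Tubb6 by 1.18. Actg1 varied widely within each arm, at 2112, 1101, 2619, 624 and 1081 RPM under strong antigen, against 335, 1247, 307 and 956 RPM under weak antigen, and did not pass (adjusted p = 0.097 with limma). Without the second 1 nM library it did (adjusted p = 0.0343).

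The remaining lower genes named by the rule belonged to no common list. St8sia4, a polysialyltransferase, had 27.5, 24.4, 25.6, 22.1 and 19.1 RPM under strong antigen, against 70.4, 68.3, 72.6 and 66.4 RPM under weak antigen. Tnfaip8, an apoptosis regulator, had 31.9, 31.4, 22.4, 28.6 and 30.1 RPM under strong antigen, against 83.9, 78.95, 86.9 and 74.7 RPM under weak antigen. Both were tight within each arm, with log2 differences of -1.50 (SE 0.10) and -1.44 (SE 0.10). Dok2, an adaptor that restrains TCR signals, differed by -1.24, the sulfotransferase Chst12 by -1.34, the scaffold gene Slc9a3r1 by -1.29, Hmha1 by -1.27, Mob3a by -1.30, the histone gene Hist3h2ba by -1.33 and AI467606 by -1.37. Trib1, a pseudokinase scaffold, completed the higher genes of the rule. It had 64.1, 44.6, 83.02, 69.4 and 55.6 RPM under strong antigen, against 3.95, 2.62, 7.78 and 7.05 RPM under weak antigen (log2 difference 3.37, SE 0.16).

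Markers of other cells were examined beside these lists. Of 20 B cell and antigen presentation markers 5 rose and 1 fell. Cd40 averaged 3.83 ± 1.07 RPM under strong antigen and 0.517 ± 0.271 RPM under weak antigen, Ciita, the activator of MHC class II genes, 6.47 ± 1.80 RPM under strong antigen and 1.87 ± 0.53 RPM under weak antigen, and Pax5 4.98 ± 1.44 RPM under strong antigen and 1.40 ± 0.397 RPM under weak antigen. Ighm fell, at 6.16 ± 0.792 RPM under strong antigen and 14.2 ± 1.88 RPM under weak antigen. The number of these markers called higher was 3 without the first 1 nM library, the first 10 nM library or the second 1000 nM library. In the fit of all 13 unengaged libraries, which adds those of dose 0 and 100 nM, 1 of the 5 was called.

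The doses within each arm differed far less than the arms. Between 10 and 1 nM, 8 genes were higher (0.0801% of those tested) and 0 lower with limma, whereas 182 genes had an unadjusted p under 0.05, and edgeR called 10 genes and DESeq2 21. The 8 were Ccl1, Egr1, Egr2, Egr3, Nab2, Nr4a1, Tnfrsf9 and Rpsa-ps10, of which 7 belong to the strong response described above. Rpsa-ps10 differed by orders of magnitude between libraries of 1 group, as given further below. Between 10000 and 1000 nM, limma called 0 genes (644 with an unadjusted p under 0.05), edgeR 0 and DESeq2 37. The 100 nM libraries, which belong to neither arm, fell in between. For the 251 genes at least 2-fold higher, they had covered a median of 72.4% of the weak-to-strong difference on the log2 scale (quartiles 61.6% and 85.9%). For the 149 genes at least 2-fold lower they had covered 53.5% (quartiles 46.5% and 61.9%). These shares are a description, since the genes were chosen for their difference between the arms.

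CAGE also resolves start sites that carry no gene symbol in the deposited table. Of 4379 such clusters tested, 1262 were higher (28.8%) and 371 lower (8.47%) under strong antigen, against 13.2% higher and 17.2% lower among 13389 clusters with a symbol. No cluster in the deposited table has a highest value below 3 RPM, so a low cluster is listed only through the libraries in which it is high, and these shares carry that limit. The unnamed clusters were weak, with a median level of 3.25 RPM, against 14.2 RPM for clusters with a symbol. Of the 1262 higher clusters, 852 were under 3 RPM in all 4 weak-antigen libraries. With a filter of at least 5 RPM in 2 libraries 551 were higher and 177 lower. The numbers tested at this filter, with or without a symbol, are not given here, so these counts cannot be set beside the shares above. Those within 1000 bases of a named start on the other strand were called higher in 333 of 725 cases (45.9%), and lower in 33 (4.55%), but 240 of the 333 were under 3 RPM in all 4 weak-antigen libraries, so the same limit holds. Those over 5000 bases from any named start were called higher in 725 of 2715 cases (26.7%), and lower in 251 (9.24%), with 490 of the 725 under 3 RPM in all 4 weak-antigen libraries. The difference between these shares was not tested.

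The unnamed start with the largest difference lay at chr19:16403119-16403127 on the plus strand (mm9). It had 77.5, 72.6, 91.4, 59.2 and 92.6 RPM under strong antigen, against 0, 0.2, 0.06 and 0.39 RPM under weak antigen. It was at or near 0 in every weak-antigen library and its log2 difference was 6.08 (SE 0.16). A cluster at chr12:111631791-111631906 on the minus strand had 51.6, 51.4, 62.00, 68.3 and 60.5 RPM under strong antigen, against 0, 0.2, 1.46 and 2.13 RPM under weak antigen. On chromosome 15 a region was taken around the unnamed start with the largest difference. In it, 30 unnamed clusters lay between 59973458 and 59993394, and all 30 were higher, 26 of them on the plus strand. Their summed level was 469, 469.9, 465, 510.3 and 617 RPM under strong antigen, against 1.99, 2.11, 11.2 and 15.5 RPM under weak antigen. Both 10 nM libraries were above both 1 nM libraries there, as for Egr2 and Nr4a1. The nearest named start is that of Trib1, 493269 bases away, itself higher by 3.37 on the log2 scale. Around the start of Nr4a1, within chr15:101076673-101098335, all 13 unnamed clusters were higher as well, at a summed level of 105 to 147 RPM under strong antigen and 6.82 to 10.5 RPM under weak antigen. That stretch is 1 of 5 windows of 25000 bases picked for at least 12 unnamed clusters called higher. Both regions were thus picked for higher clusters, and low clusters are listed only through libraries in which they are high. These counts are a description.

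Unnamed starts that fell were fewer. A cluster at chr7:97450751-97450941 on the plus strand had 8.50, 6.05, 6.68, 5.25 and 5.01 RPM under strong antigen, against 32.6, 29.2, 31.4 and 25.7 RPM under weak antigen, with no overlap (log2 difference -2.06, SE 0.13). A cluster at chr8:93597975-93598100 on the plus strand had 3.99, 4.04, 2.14, 2.28 and 3.72 RPM under strong antigen, against 18.04, 17.3, 15.7 and 15.2 RPM under weak antigen. It was lower in all 5 strong-antigen libraries than in any weak-antigen library (log2 difference -2.03, SE 0.14).

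The clusters of some genes did not change alike. On the log2(RPM + 1) scale, clusters of unequal level can differ at the same fold change, so a call need not mean a switch of start. Among 2052 genes with at least 2 tested clusters, clusters changed by unequal amounts in 515 (25.1%; limma diffSplice, adjusted p under 0.05). With a filter of at least 5 RPM in 2 libraries the number was 316, out of fewer genes tested than before, a number not given here. Clusters described here and below average at least 5 RPM over the 9 libraries, and their counts and order are among such clusters only. Sla, which encodes the adaptor SLAP that lowers TCR surface levels, had 3 of them. The most upstream, at chr15:66644234-66644285, fell to 17.4, 12.1, 11.7, 10.1 and 8.09 RPM under strong antigen, against 35.8, 27.7, 35.1 and 26.4 RPM under weak antigen. The most downstream, at chr15:66633145-66633249, rose to 113, 128, 137, 112 and 132 RPM under strong antigen, against 14.1, 11.5, 18.9 and 20.8 RPM under weak antigen. The use of starts thus turned over, with log2 differences of -1.30 and 2.88, while the gene total rose by 1.47.

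Rgs3, a regulator of G protein signalling, did not pass in its total (log2 difference 0.06, adjusted p = 0.731 with limma), which averaged 20.3 ± 1.94 RPM under strong antigen and 19.4 ± 2.99 RPM under weak antigen. Its upstream cluster at chr4:62244513-62244603 fell to 8.07, 4.93, 6.84, 8.40 and 5.52 RPM under strong antigen, against 23.03, 17.3, 15.2 and 17.7 RPM under weak antigen. Its downstream cluster at chr4:62295404-62295513 rose to 10.8, 13.4, 15.5, 11.3 and 16.9 RPM under strong antigen, against 0.52, 0.72, 1.46 and 1.51 RPM under weak antigen. The opposite changes of the clusters, -1.33 and 2.82 on the log2 scale, did not show in the sum. Foxn2, a forkhead factor whose total did not pass either (adjusted p = 0.121 with limma) but did with TMM factors (adjusted p = 0.0151), quantile normalization (adjusted p = 0.0211), edgeR (adjusted p = 0.0134) and DESeq2 (adjusted p = 0.0230), had clusters a short distance apart. Its cluster at chr17:88840057-88840117 differed by -0.42, and the cluster at chr17:88840399-88840500 by 3.21, at a mean of 13.5 ± 3.23 RPM under strong antigen and 0.512 ± 0.215 RPM under weak antigen.

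Nab1, a corepressor of EGR factors and a relative of Nab2, gained starts. Its most upstream cluster, at chr1:52557224-52557301, moved by 0.46 on the log2 scale. The cluster just downstream of it, at chr1:52557086-52557125, had 30.7, 37.5, 35.2, 25.3 and 36.2 RPM under strong antigen, against 0.6, 0.66, 2.66 and 5.76 RPM under weak antigen. The third, at chr1:52547599-52547599, had 14.9, 19.4, 19.6, 14.8 and 20.3 RPM under strong antigen, against 0.15, 0.46, 1.46 and 3.13 RPM under weak antigen. Both downstream clusters were low at 1 nM, higher at 10 nM and highest in the strong-antigen libraries. Slc38a1, an amino acid transporter, had 5 clusters of at least 5 RPM on average. The one at chr15:96472539-96472543 rose most, by 3.20 on the log2 scale, and the most upstream of the 5, at chr15:96473197-96473374, differed by -0.34.

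**Figure D4:**
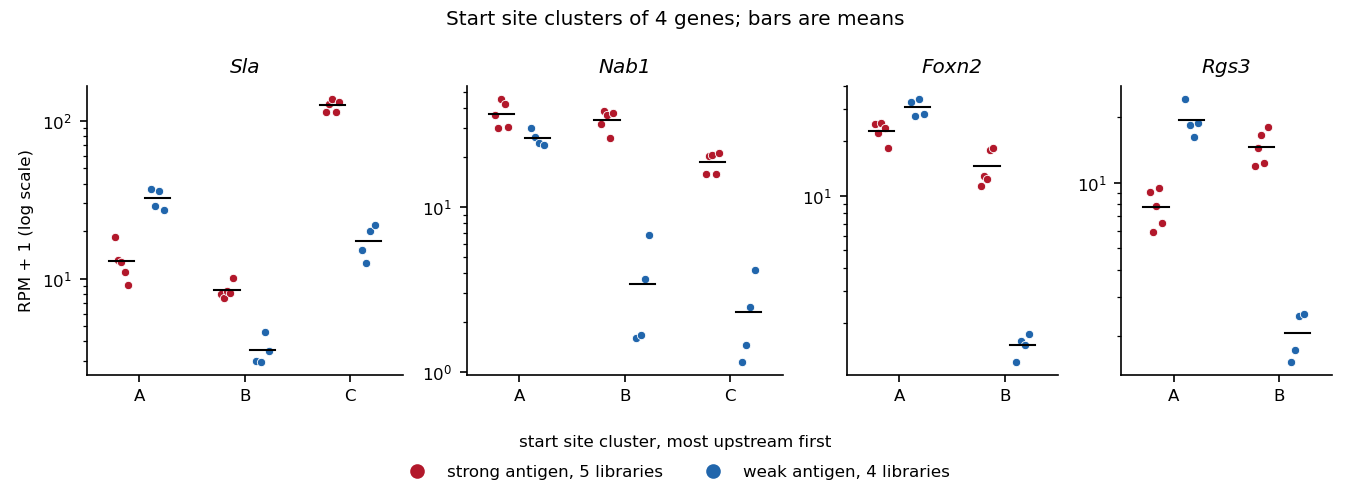
Level of each start site cluster averaging at least 5 RPM (y axis, RPM + 1, log scale) of Sla, Nab1, Foxn2 and Rgs3 in the 5 strong-antigen libraries (red, left) and the 4 weak-antigen libraries (blue, right), with clusters ordered from the most upstream (A) and bars at the means. In Sla, Foxn2 and Rgs3 the red points lie below the blue ones at cluster A and above them at the last cluster.

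The same contrast was formed for the 9 libraries of the same doses with PD-1 engagement, in a fit of 18 libraries that also holds the 9 above. The means compared share no library with those above. The spread behind the calls was estimated from all 18 libraries, so the counts with and without engagement come from unlike fits. Strong antigen with engagement called 1146 genes higher (11.4%) and 1253 lower (12.5%) of 10027. Among genes tested in both, 882 were higher in both comparisons, 77.2% of those higher with engagement and 75.3% of those higher without. In both, 1089 were lower, 87.1% of those lower with engagement and 59.2% of those lower without, and 0 were called in opposite directions. A test of the difference itself, with engagement minus without, called 3 genes positive (0.0299%) and 10 negative (0.0997%). Libraries with and without engagement that share a dose and a replicate number deviated together, and with these pairs as a block the test called 210 genes positive (2.09%) and 100 negative (0.997%).

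The genes with a smaller rise under engagement included cytokines and a chemokine. Xcl1 rose by 2.03 with engagement and by 3.76 without, and the difference was -1.72 (adjusted p = 0.000145 with limma, and 0.000672 with the pair block). Il2 rose by 1.58 with engagement and by 2.91 without (difference -1.33, adjusted p = 0.000641 with limma, and 0.00155 with the pair block). Il3 differed likewise, at 0.43 with engagement and 1.89 without. Egr1 went the other way, with a larger antigen contrast under engagement, 5.59 against 4.26 without. Its difference was 1.33 (adjusted p = 0.00142 with limma, and 7.02e-05 with the pair block). Nr4a1 and Egr2 gave 5.74 and 6.48 with engagement, against 5.08 and 6.08 without, and their difference passed with the pair block (adjusted p = 0.00398 and 0.0227) but not in the fit without it (adjusted p = 0.999 for each). A contrast can differ through the strong or the weak arm. Levels with engagement are not given here, so which arm differed is not shown for any of these genes.

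**Figure D5:**
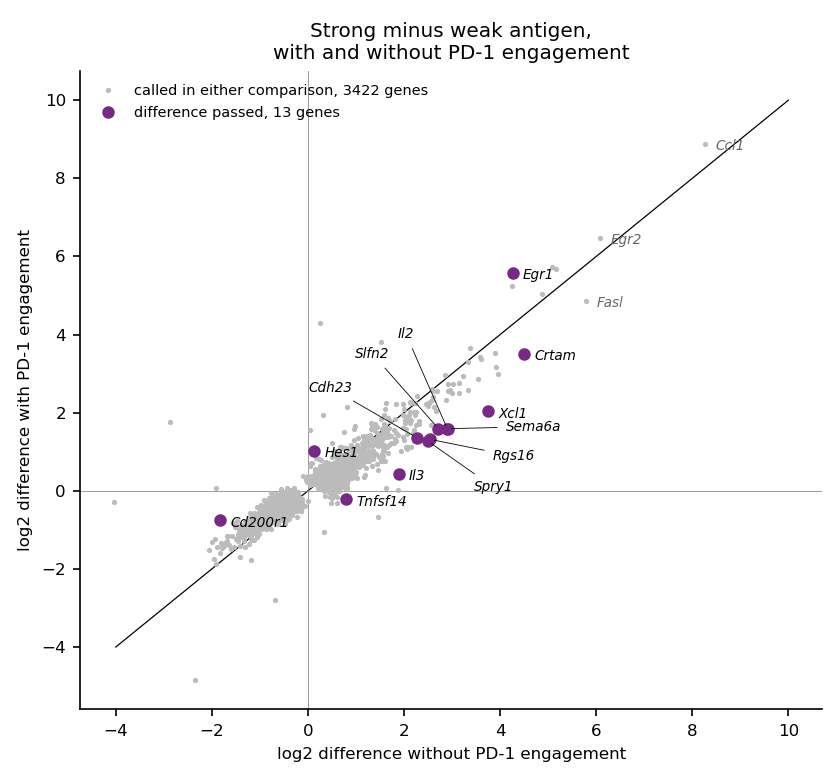
Log2 difference between strong and weak antigen with PD-1 engagement (y axis) against that without engagement (x axis), both on the log2(RPM + 1) scale, for genes called in at least 1 of the comparisons or in the test of the difference, with the line of equality. Purple points are the 13 genes whose difference passed; Xcl1, Il2 and Il3 lie below the line and Egr1 above it.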

How the data were processed

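The values are RPM, CAGE tags per start site cluster scaled to library size, as deposited by the authors with mm9 positions. The submitters' processing notes name BWA 0.7.12 and HISAT2 2.0.5. The table holds 18025 clusters, none with a highest value below 3.01 RPM. Clusters of 1 symbol were summed to 10098 genes, and 16 symbols had been turned into dates. The members and gene lists were chosen with earlier results of these data known.

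Genes that reached 1 RPM in 2 or more libraries entered the test, as log2(RPM + 1), with limma 3.58.1 in R 4.3.3, 1 mean per dose and Benjamini-Hochberg adjustment at 0.05. The same model was run on clusters, with diffSplice for start usage. It was also run on 18 libraries, for the contrast with engagement and for its difference from that without. RPM steps gave back whole tags for at least 99.98% of values within 0.1 tag, and edgeR 4.0.16 and DESeq2 1.42.0 were run on these recovered counts. The limma step was tested on simulated data with 9982 genes, of which 64, 69 and 67 were changed by log2 0.5, 1 and 2. It recovered 40.6% of changes of log2 0.5 and 100% of those of 1 and 2, with 9 false calls. The simulation had far fewer changed genes than were called in the data and no replicate structure. Its false calls therefore give no error rate for the real calls. Genes were named by rule: the 12 furthest out per direction of at least median level without overlap, up to 6 per list (4 for markers and reference genes), the largest within-arm, engagement and start usage differences, and fixed genes such as Il2. Deviations of libraries with and without engagement that share a dose and a number correlated at each of the doses (r 0.256 to 0.457). Deviations were taken from the group mean, so at doses with 2 libraries per group both pairs give the same r. The pairs of a dose are therefore not separate evidence. Genes without values are not analysed here.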

Additional observations from a re-analysis of the deposited data

Results flagged for a closer look

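Results listed here are named genes whose strong-minus-weak difference was itself different with PD-1 engagement, by limma over 18 libraries. The test called 13 genes, and those not named by the rule are left out. With a pseudocount of 0.1 it called 4 genes. Without engagement, Il2, Il3 and Rgs16 were at or near 0 under weak antigen and low under strong antigen. The contrast was larger with engagement for Egr1, by 1.33 on the log2 scale. It was smaller in size with engagement for Cd200r1, which fell in both (difference 1.07), and, among genes that rose, for Xcl1 (difference -1.72), Il3 (-1.46), Il2 (-1.33), Spry1 (-1.24), Rgs16 (-1.22) and Slfn2 (-1.12). Whether the strong or the weak arm differed is not shown here. How PD-1 engagement was achieved is not stated in the labels, and the cause of these differences was not tested.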

How the results depend on the processing

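Of 171 named genes, 130 kept direction and call under every alternative run. Direction reversed for the Rgs3 log2 difference (-0.0362 without the second 1 nM library, up to 0.148 without the first, -0.0423 without 10 nM, -0.0422 without 10000 nM), the Cdkn2d log2 difference (0.315 without the first 10 nM library, -1.59 without the second, 0.0188 without the second 1000 nM library), Rpsa-ps10 (0.264 without 10 nM) and Rc3h1 (0.0629 without 1000 nM). Without 1 nM 626 genes were higher and 858 lower, without 10 nM 771 and 1039, and without 10000 nM 697 and 1199. At 5 RPM, 551 unnamed clusters were higher and 177 lower, and 316 genes had clusters that changed by unequal amounts. The numbers tested at that filter are not given here. The engaged minus unengaged test called 4 genes with a pseudocount of 0.1, 8 at 5 RPM, 20 with quantile normalization, 26 with TMM and 310 with the pair replicate block. DESeq2 called 21 genes between 10 and 1 nM and 37 between 10000 and 1000 nM. Leaving out 1 library at a time gave 838 to 1104 genes higher, 1020 to 1966 lower, 890 to 1233 unnamed clusters higher, 240 to 358 lower, 365 to 497 genes for start usage, 7 to 15 between 10 and 1 nM, 0 to 8 between 10000 and 1000 nM, and 6 to 14 for engaged minus unengaged. Deviations of libraries with the same number correlated weakly among the 1, 10 and 1000 nM doses (r 0.167 to 0.228). Against the 10000 nM libraries the same-number correlations had both signs (r -0.371 to 0.335). With the number as a replicate block 1344 genes were higher and 1953 lower, and 1 was called between 10000 and 1000 nM. The cause of these shifts was not tested. Every strong-antigen library was less deep than every weak-antigen library. With tags thinned to the smallest library, 1071 genes were higher and 1646 lower. The 2 or 3 libraries per dose limit small differences.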

Other observations

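Gene families described here were picked after their values were seen and carry no test. Of 61 replication-dependent histone genes tested, 0 were called higher and 48 lower under strong antigen, with a median log2 difference of -0.66, beside 18.4% of all genes called lower. Histone genes have near-identical copies, so values of single members are uncertain and the 48 calls are not independent of each other. A Hist1h4k cluster, for example, had 3044 and 19.3 RPM in the 1 nM libraries. Of 64 cytoplasmic ribosomal protein genes, 12 were called higher and 0 lower (median 0.15), and of 23 kinesin genes 2 were higher and 12 lower (median -0.34). Of 84 respiratory chain genes 2 were called higher and 3 lower. Over all tested genes 11.7% were called higher and 18.4% lower, so the respiratory chain calls were below both shares.

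A few clusters differed by orders of magnitude between libraries of 1 group. A cluster of the pseudogene Rpsa-ps10 at chr3:149736582-149736584 averaged 3.4 RPM under strong antigen and 493 RPM under weak antigen, and its weak-antigen level came from the 10 nM libraries, at 1056 and 913 RPM. Within 7 of 12 groups its libraries were far apart, such as 604 and 3.3 RPM at 100 nM without engagement. At 10 nM with engagement it had only 3.16 and 2.86 RPM, so its call between 10 and 1 nM is uncertain. Rpl9-ps4 was high in the second 1 nM and the second 10 nM library, at 119 and 163 RPM. In all, 38 clusters showed such gaps within at least 2 of 12 groups. The windows of 25000 bases picked for at least 12 higher unnamed clusters included chr9:3000087-3022232, with 17 of 21 higher, and chr2:98502458-98507394, with 16 of 25. Both lie in repeats, where read placement is uncertain.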
